A study of Rattus norvegicus with 24 samples.

Results

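A group of 95 genes was lower in hearts labelled DAAO than in hearts labelled CTL, in the left and in the right ventricle alike. The genes were chosen by their measured values, out of 32883 Ensembl gene identifiers in the deposited tables. Each had a mean normalized count of at least 50 in both ventricles, a mean difference of DAAO minus CTL of -1 or less in both on the log2(value + 1) scale, and no DAAO library as high as the lowest CTL library in either. A difference of -1 on this scale means that about 50% of the CTL level was left. One further identifier met every condition and was left out by the rule. Because the DAAO against CTL contrast chose the genes, its values are given as a description and support nothing.

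The hearts came from rats of strain WI, with 6 animal numbers labelled CTL (read as control) and 6 labelled DAAO. Each number gave 1 library of the left ventricle together with the septum and 1 of the right ventricular free wall, so that 24 libraries form 4 groups of 6. Chemogenetic heart failure is the subject given in the series title. The labels give no sex, age, dose, time or diet, and nothing on how or in which cells the enzyme was expressed or what the CTL rats received. The 4-digit number is taken here to stand for a rat, which no label states, so that p-values measure the spread between these samples. Every DAAO number is higher than every CTL number, so the group cannot be told apart from anything else that went with the numbers.

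D-amino acid oxidase, usually abbreviated DAAO, is an enzyme that oxidizes D-amino acids and releases hydrogen peroxide. Expressed in a chosen cell type and fed a D-amino acid, it serves as a chemogenetic source of oxidative stress, because mammalian cells hold little of its substrate. The left ventricle pumps blood into the systemic circulation and the right ventricle into the lungs, and in a failing heart both walls can change their gene expression. Bulk RNA of a ventricular wall mixes cardiomyocytes with fibroblasts, endothelial cells and other cells, so that fewer cells of a type and less RNA per cell cannot be told apart.

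The identifiers could not be turned into gene names, since 0 of 32883 matched the reference at hand. The 95 genes are therefore described by their levels and patterns, and only the 2 with the most negative mean difference are printed by identifier. The 28 pathway and cell type lists that had been drawn up, the markers of heart cell types and the promoter sequences were not analysed here for the same reason.

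The deposited values are read counts divided by a size factor for each library, and dividing by each library's step gave the reads back. Left ventricular libraries held 15363539 to 23263897 recovered reads and right ventricular libraries 13280705 to 18777633. In limma fits on log2(value + 1), 20% of 14041 tested genes were called lower in DAAO in the left ventricle and 14.0% of 13489 in the right, at a Benjamini-Hochberg adjusted p below 0.05. In the left ventricle 2805 genes were called lower and 2430 higher, and in the right 1890 and 1684. When all libraries were brought to equal totals, the calls became 1628 lower and 4337 higher in the left and 932 and 3815 in the right. That scaling moved the median difference of all tested genes from 0.01 to 0.22 and from 0.02 to 0.27. For most of the 95 genes the CTL animals C_7000 and C_7005, numbered apart from the rest of CTL, stood nearer to DAAO, and results that rest on them are given with and without them.

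Of the 32883 identifiers, 10955 had a mean value of at least 50 in both ventricles. A difference of -1 or less was found for 297 of these in the left ventricle, for 307 in the right and for 163 in both. For 67 of the 163 the groups overlapped in at least 1 ventricle, which left 96 identifiers and, without the 1 left out, the 95 genes. Over all tested genes, every DAAO library lay below every CTL library for 8.28% in the left and 5.50% in the right ventricle, a condition that all 95 genes meet by their choice. All 95 were also called lower in both ventricles by limma, by edgeR's quasi-likelihood test and by DESeq2, from which nothing is read since the same contrast chose them. Of 14041 genes tested in the left ventricle, edgeR called 2704 lower and DESeq2 2978. Of 13489 in the right, they called 1837 and 2148 lower.

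The differences of the 95 genes ranged from -4.44 to -1.01 in the left ventricle, with a median of -1.52. Those in the right ranged from -4.02 to -1.01, with a median of -1.47. The median of all tested genes was 0.01 in the left and 0.02 in the right. On the linear scale, the DAAO mean was between 3.54% and 49.7% of the CTL mean in the left ventricle, with a median of 34.6%. The right ventricular share was between 7.46% and 51.6%, with a median of 37.8%. A difference of -2 or less was reached by 33 genes in the left ventricle, by 20 in the right and by 17 in both. Between -1.5 and the selection limit of -1 lay 46 genes in the left and 51 in the right. Scaled to equal totals, the medians were -1.32 and -1.23, and 52 of the 95 genes still met the conditions.

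**Figure D1:**
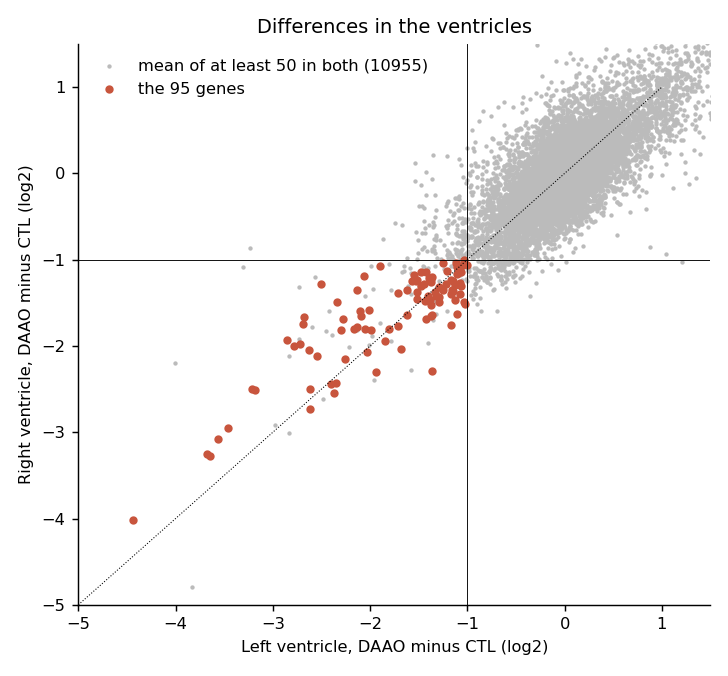
Mean log2 difference of DAAO minus CTL in the left ventricle (x axis) and the right ventricle (y axis), for genes with a mean of at least 50 in both (grey) and the 95 genes (red); points beyond the ends of the axes are not shown. Solid lines mark the selection limit of -1 and the dotted line equal differences: the 95 genes run from just inside the limits to -4.44 in the left and -4.02 in the right ventricle.

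Both limits can be read from the genes next to them. The 3 genes just inside the limit on the difference had -1.01 and -1.06, -1.03 and -1.01, and -1.02 and -1.51 in the left and right ventricle. The 3 identifiers just outside, which met every other condition, had -0.999 and -1.24, -0.994 and -1.12, and -1.15 and -0.989. The 3 genes with the lowest mean values had 86.3 and 58.7, 70.2 and 60.2, and 80.9 and 61.4 normalized counts in the left and right ventricle. The 3 nearest below the minimum had 49.2 and 50.8, 47.5 and 60.8, and 23.3 and 27.6.

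The 2 ventricles chose overlapping but not equal sets. With the conditions applied to 1 ventricle, 243 identifiers met them in the left and 205 in the right, and the 96 that met both are 39.5% of the left and 46.8% of the right set. For the 147 that met them in the left alone, the right ventricular differences ranged from -2.61 to 0.21, with a median of -0.82. Of these 147, 44 were at -1 or less in the right as well, 97 lay between -1 and 0, and 6 were at or above 0. For the 109 that met them in the right alone, the left ventricular differences ranged from -1.78 to 0.02, with a median of -0.77, and 1 was at or above 0. Nearly all genes that missed the selection in 1 ventricle thus had a difference below 0 there too. The median of all tested genes was 0.01 in the left and 0.02 in the right ventricle. Both ventricles came from the same animal numbers, so they are not independent.

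The 95 genes covered a wide range of levels. Left ventricular CTL means ran from 117 to 76106 normalized counts, with a median of 851, and right ventricular ones from 78.7 to 102714, with a median of 817. The DAAO means were 7.01 to 33613 in the left, with a median of 251, and 11.9 to 41128 in the right, with a median of 269. Normalized counts are not divided by gene length, so they order genes by reads and not by transcripts.

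Highly read genes were a larger share among the 95 than among all genes with a mean of at least 50. With a CTL mean of 10000 or more, 11 of 176 genes in the left ventricle (6.25%) and 10 of 153 in the right (6.54%) belonged to the 95. With a CTL mean from 1000 up to 10000, the shares were 30 of 2594 (1.16%) and 30 of 2124 (1.41%). Below 1000 they were 54 of 8185 (0.660%) and 55 of 8678 (0.634%). Differences below 1000 were the larger ones, with medians of -1.86 in the left and -1.69 in the right ventricle. In the middle class the medians were -1.40 and -1.33, and in the top class -1.36 and -1.37. The selection used these same values, so the shares were given no test.

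**Figure D2:**
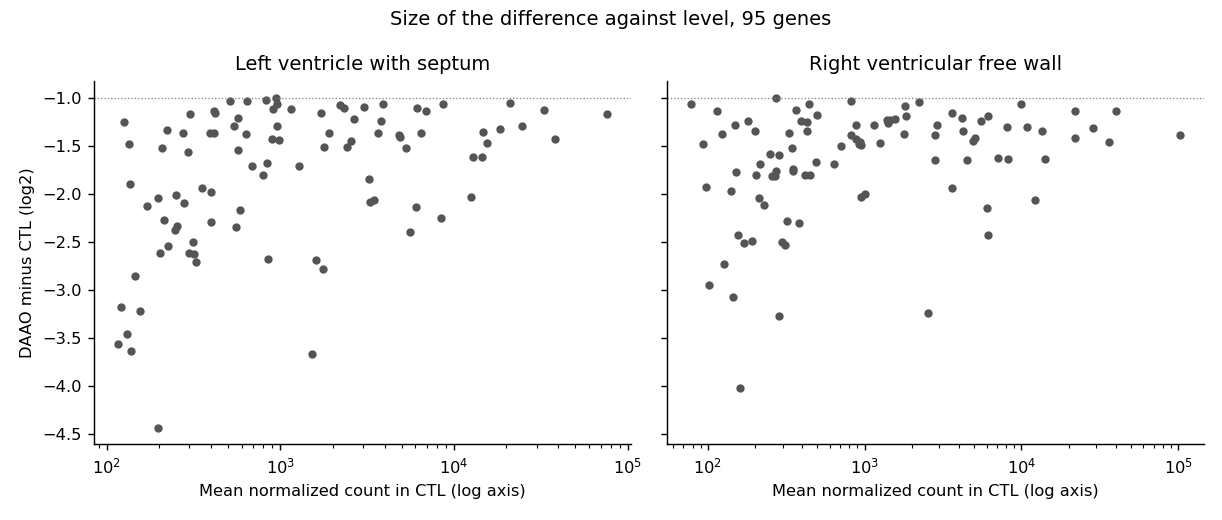
Mean log2 difference of DAAO minus CTL (y axis) against the mean normalized count in CTL (x axis, log scale) for each of the 95 genes, left ventricle and right ventricle. Differences of -2 or less lie mostly below a CTL mean of 1000 (24 of 33 genes in the left and 15 of 20 in the right ventricle), while genes of 10000 and above stay between the dotted limit of -1 and about -2.

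In the left ventricle the 95 genes together took 2.16% ± 0.291 (SD, n = 6) of the recovered reads in CTL and 0.959% ± 0.108 (n = 6) in DAAO. In single libraries the share ran from 1.65% to 2.47% in CTL and from 0.781% to 1.08% in DAAO. The right ventricular share was 2.54% ± 0.225 (n = 6) in CTL, from 2.15% to 2.73%, and 1.18% ± 0.322 (n = 6) in DAAO, from 0.695% to 1.48%. A few genes made up most of this. The most abundant gene held 18.3% of the summed CTL level in the left and 23.5% in the right ventricle, and the 10 most abundant held 64.5% and 69.0%.

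The most abundant gene showed the pattern of the set in every library. Its left ventricular normalized counts in CTL were 61312 in C_7000, 54162 in C_7005, 84309 in C_7118, 86204 in C_7120, 81266 in C_7121 and 89380 in C_7123. In left ventricular DAAO libraries they were 31491 in D_7135, 38748 in D_7137, 25574 in D_7138, 40352 in D_7142, 30822 in D_7143 and 34691 in D_7146. The groups were apart, the 2 CTL animals with separate numbers were the lowest of CTL, and D_7138 was the lowest of all. CTL averaged 76106 ± 14646 and DAAO 33613 ± 5475 (SD over 6 libraries), a log2 difference of -1.17. Right ventricular CTL values ran from 82114 in C_7005 to 118199 in C_7118, with a median of 104801. The DAAO values there were 32074 in D_7135, 58595 in D_7137, 21671 in D_7138, 53335 in D_7142, 49379 in D_7143 and 31718 in D_7146. D_7137, D_7142 and D_7143 thus lay clearly above the other DAAO animals, with none as high as a CTL animal, and the log2 difference was -1.39.

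ENSRNOG00000012458 had the most negative difference in both ventricles. Its left ventricular values in CTL were 279 in C_7000, 24.2 in C_7005, 172 in C_7118, 313 in C_7120, 85.4 in C_7121 and 315 in C_7123. In DAAO they were 10.1 in D_7135, 2.82 in D_7137, 4.71 in D_7138, 3.53 in D_7142, 4.22 in D_7143 and 16.7 in D_7146. CTL itself spread widely, with C_7005 far below the rest and near the highest DAAO animal. The means were 198 ± 124 and 7.01 ± 5.40 (SD, n = 6 each), and the log2 difference was -4.44. Right ventricular values in CTL were 165, 38.8, 314, 187, 96.9 and 159 in the same order of animals, with C_7005 again the lowest. DAAO values were 7.49 in D_7135, 6.94 in D_7137, 0 in D_7138, 26.8 in D_7142, 24.5 in D_7143 and 5.97 in D_7146, and the log2 difference was -4.02. The DAAO values rest on 27 reads or fewer per library, so the fold is imprecise.

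ENSRNOG00000026548 had the second most negative mean difference of the 95 genes, at a level where counting noise is small. Its left ventricular values in CTL were 1108 in C_7000, 1134 in C_7005, 1574 in C_7118, 1723 in C_7120, 1758 in C_7121 and 1884 in C_7123. In DAAO they were 74.6 in D_7135, 153 in D_7137, 50.8 in D_7138, 231 in D_7142, 219 in D_7143 and 84.5 in D_7146. The lowest CTL value was 4.80 times the highest DAAO value, the widest gap of the 95 genes in the left ventricle. The means were 1530 ± 332 and 135 ± 77.3 (SD, n = 6 each), a log2 difference of -3.67. In the right ventricle CTL values were 1916, 2334, 2979, 2333, 2827 and 2755 in the same order of animals. DAAO values were 257 in D_7135, 509 in D_7137, 31.8 in D_7138, 749 in D_7142, 820 in D_7143 and 123 in D_7146. The right DAAO libraries spread widely, with D_7138 at the bottom, and the log2 difference was -3.25 with all animals and -2.65 without D_7138.

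**Figure D3:**
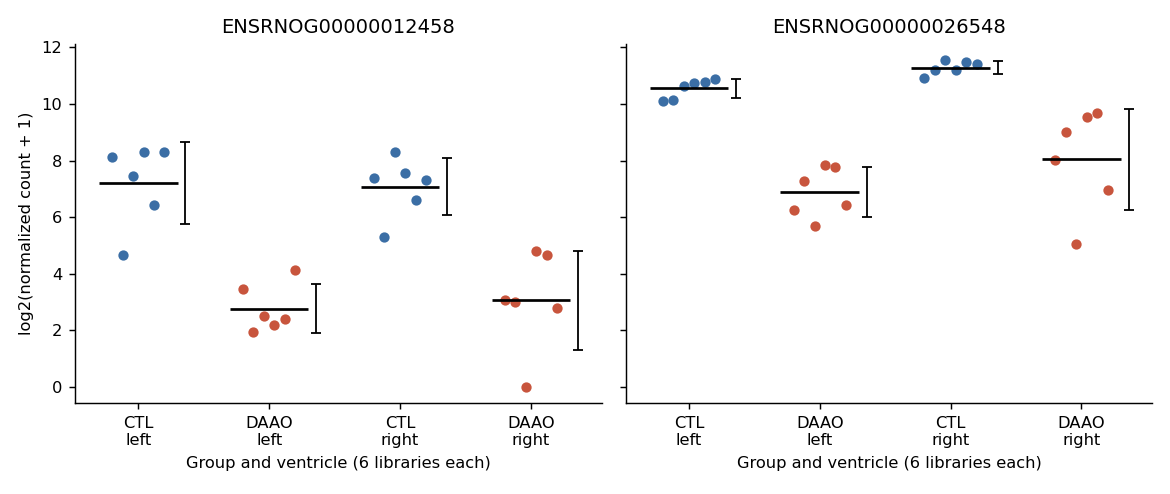
Log2(normalized count + 1) of ENSRNOG00000012458 and ENSRNOG00000026548 in each of 6 libraries per group and ventricle; points are libraries, horizontal lines are means and the brackets at their right are ± 1 SD. Groups do not overlap in either ventricle, and the point at 0 is the right ventricular library D_7138 of ENSRNOG00000012458.

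The gap between the groups varied over the 95 genes. The lowest CTL value was 1.06 to 4.80 times the highest DAAO value in the left ventricle, with a median of 1.46. The right ventricular ratio was 1.003 to 2.34, with a median of 1.255. The ratio reached 2 for 18 genes in the left and for 2 in the right, and it was below 1.1 for 5 and 20 genes. None of the 95 genes was at 0 in a left ventricular DAAO library, and 2 were at 0 in at least 1 right ventricular DAAO library.

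The animals differed in how low the 95 genes were, and they did so in a similar order in both ventricles. In the left ventricle the median of the 95 genes relative to the CTL mean was -1.83 in D_7138, -1.67 in D_7135, -1.58 in D_7146, -1.5 in D_7143, -1.33 in D_7137 and -1.26 in D_7142. In the right ventricle it was -2.26 in D_7138, -1.89 in D_7146, -1.76 in D_7135, -1.09 in D_7143, -1.02 in D_7137 and -0.95 in D_7142. D_7138, D_7135 and D_7146 were the lower 3 in both ventricles, and in the right they were separated from the other 3. D_7138 was the lowest DAAO library for 60 of the 95 genes in the left and 77 in the right ventricle, against 22.9% and 19.8% of all genes with a mean of at least 50. D_7142 was the highest for 47 and 42 of the 95, against 26.5% and 17.2%.

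Among CTL, C_7005 was the lowest library for 73 of the 95 genes in the left and 48 in the right ventricle, against 31.5% and 22.6% of all such genes. Its median relative to the CTL mean was -0.52 in the left and -0.32 in the right, and that of C_7000 was -0.25 and -0.16. The other 4 CTL animals lay between 0.15 and 0.23 in the left and between 0.01 and 0.19 in the right. C_7005 was below all 4 of them for 86 of the 95 genes in the left and 59 in the right, and C_7000 for 74 and 50. The same held for 38.7% and 27.5% of all such genes for C_7005, and for 33.9% and 22.8% for C_7000. On a scale from 0 at the mean of these 4 animals to 1 at the DAAO mean, the median position of C_7005 was 0.41 in the left and 0.26 in the right, and that of C_7000 was 0.24 and 0.17. Without both animals the median differences of the 95 genes were -1.66 and -1.60, against -1.52 and -1.47 with them. The rule itself then chose 192 identifiers, 94 of the 95 among them. What set these animals apart was not tested.

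**Figure D4:**
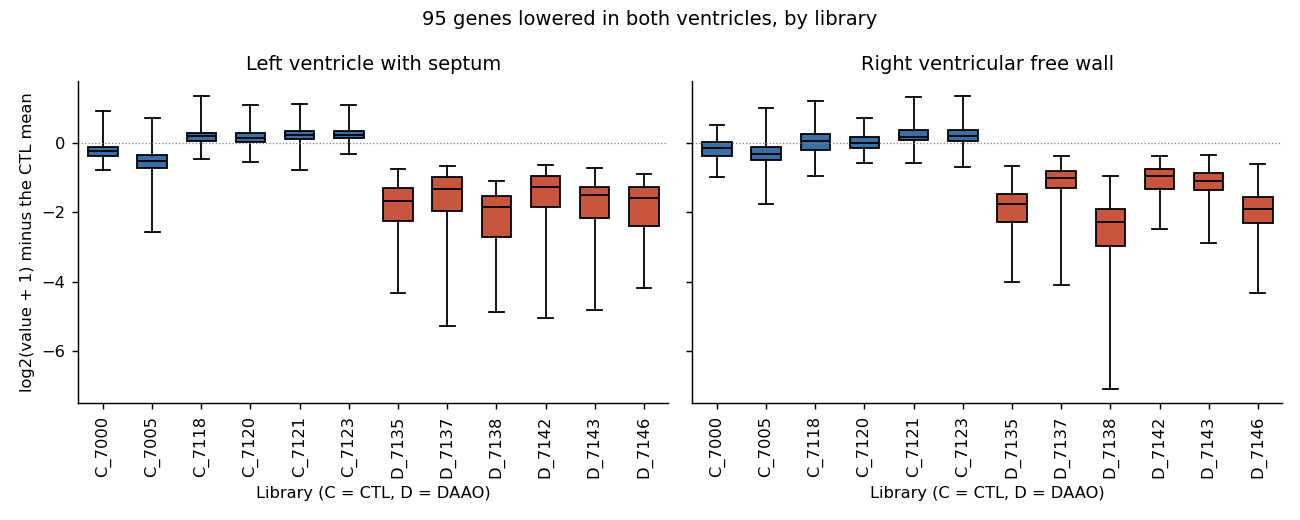
Log2(value + 1) of the 95 genes minus each gene's CTL mean, by library, for the left and the right ventricle; boxes show the quartiles with the median, and whiskers reach the lowest and highest gene. Medians of C_7000 and C_7005 lie below those of the other CTL libraries, and D_7138 has the lowest median in both ventricles, at -1.83 and -2.26.

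Spread within the groups was widest for the 95 genes in right ventricular DAAO. The median SD of log2 values was 0.36 in left CTL, 0.35 in left DAAO, 0.31 in right CTL and 0.63 in right DAAO. Over all genes with a mean of at least 50 these medians were 0.19, 0.18, 0.25 and 0.26. The higher CTL medians of the 95 genes rested on C_7000 and C_7005. Over the other 4 CTL animals they were 0.15 in the left and 0.24 in the right, against 0.13 and 0.22 over all such genes. In the right ventricle the SD was larger in DAAO than in CTL for 89 of the 95 genes (93.7%), against 49.2% of all such genes, and for 82 of the 95 without D_7138. In the left ventricle it was larger in DAAO for 40 of the 95 (42.1%), against 43.5%. That left ventricular count also rested on C_7000 and C_7005, since without them the SD was larger in DAAO for 86 of the 95, against 69.6% of all such genes. The right ventricular count without them was again 89, against 58.7%. These values have no test, since genes that vary together are not independent and the choice of the genes used the same libraries. DAAO levels were also lower than CTL levels for all 95 genes, and the part of level in the spread was not tested.

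**Figure D5:**
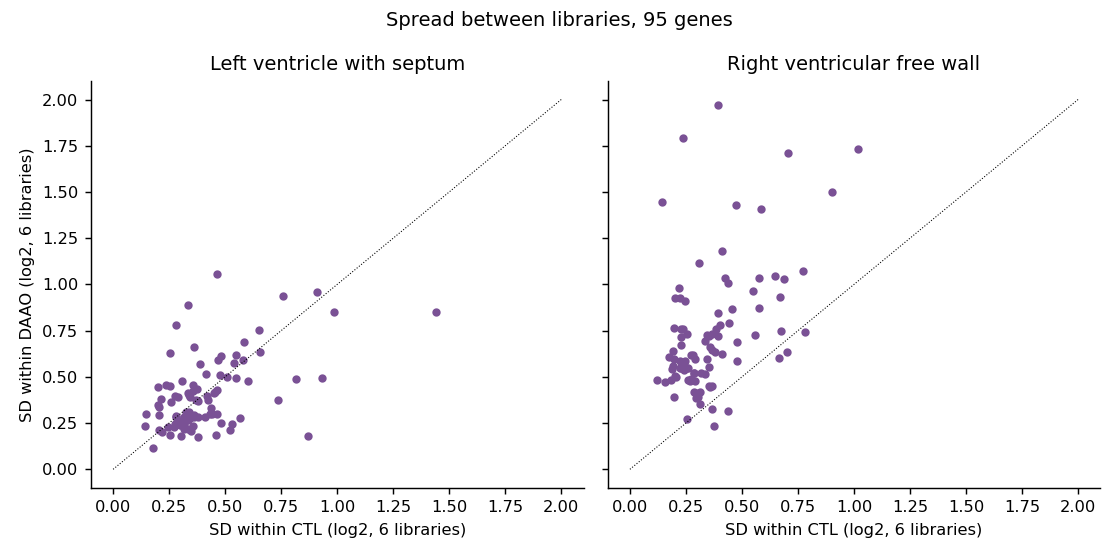
SD of log2(value + 1) over the 6 DAAO libraries (y axis) against the SD over the 6 CTL libraries (x axis) for each of the 95 genes; the dotted line marks equal SDs. In the right ventricle 89 of 95 points lie above the line, and in the left ventricle 40 of 95.

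The 95 genes varied together from animal to animal. Over the 4465 pairs of the 95 genes, the median Pearson correlation within a group was 0.76 in left CTL, 0.49 in left DAAO, 0.43 in right CTL and 0.80 in right DAAO, each over 6 animals. Over pairs of all genes with a mean of at least 50 the medians were 0.01, 0.02, -0.00 and 0.00. In CTL this rested on C_7000 and C_7005, since over the other 4 animals the medians were 0.09 in the left and 0.16 in the right ventricle. Without D_7138 the DAAO medians were 0.39 and 0.72. All pairs share the same libraries and depth, and these correlations are a description. The 95 genes were all chosen as lower in DAAO, while pairs of all genes mix higher and lower ones. Whether other genes lower in DAAO vary together as much was not tested.

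DAAO animals that were lower in 1 ventricle tended to be lower in the other. For each gene, deviations from the group mean were correlated between the ventricles over the animal numbers. The median over the 95 genes was 0.71 in CTL and 0.73 in DAAO (6 animals each) and 0.65 over both groups (12 animals). Over all genes with a mean of at least 50 these medians were 0.30, 0.51 and 0.38. The correlation was above 0 for 94 of the 95 genes over both groups. In CTL it rested on C_7000 and C_7005, since over the other 4 CTL animals the median was 0.19, with 58 of the 95 genes above 0, against a median of -0.09 for all such genes. Over both groups without these 2 animals the median was 0.66, against 0.32. D_7138 was the lowest DAAO library for most of the 95 genes in both ventricles. How far the DAAO median rested on D_7138 was not tested. Across all tested genes, the left and right libraries of C_7118 and C_7120 deviated together at r of only 0.060 and 0.057. The own partner correlated best for C_7000, C_7005 and C_7121, but not for C_7118, C_7120 and C_7123. The pairing of CTL libraries is therefore uncertain for the latter numbers, though a low r alone does not show a wrong pairing. The 2 libraries of a number share an animal, as the numbers are read here, and no test was made.

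The size of the difference was similar in both ventricles for most of the 95 genes. It was larger in the left for 52 genes and in the right for 43. The left minus right difference of differences ranged from -1.22 to 0.92, with a median of -0.08, and it was under 0.5 in size for 76 genes. In 1 limma fit over all 24 libraries, the left and right DAAO effects differed for 0 of the 95 genes at an adjusted p below 0.05, with 4 at an unadjusted p below 0.05 and a lowest adjusted p of 0.0567. In the same fit 2.93% of 13344 genes were called. With the animal number as a block, 3 of the 95 were called, against 10.2% of all genes, and 12 of the 95 had an unadjusted p below 0.05. Both effects entered the choice of the genes, which asks for a low value in each ventricle. Neither the similar sizes nor the counts are therefore a result about the set. The share of all genes whose differences lay under 0.5 apart was not counted.

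All 3 genes called with the block were lower by more in the left ventricle. The first had left ventricular means of 314 in CTL and 54.8 in DAAO and right ventricular means of 149 and 62.6, with log2 differences of -2.51 and -1.28 (limma with the block, adjusted p = 0.00652). The second had means of 3455 and 834 in the left and 1841 and 802 in the right, with -2.07 and -1.19 (adjusted p = 0.0104). The third had 136 and 36.4 in the left and 78.7 and 38.7 in the right, with -1.90 and -1.07 (adjusted p = 0.0368). For all 3, the printed CTL mean was higher in the left table while the DAAO means of the tables lay close together, though the tables were normalized separately. Without the block their adjusted p-values in limma were 0.0567, 0.0894 and 0.115. The block takes same-numbered libraries as 1 animal, and the pairing of C_7118, C_7120 and C_7123 is uncertain.

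Levels of the ventricles were set side by side as CPM, each gene's share of a library's recovered reads on a log2 scale, since the tables had been normalized separately, and were given no test. In CTL the left minus right log2 difference of the 95 genes ranged from -1.20 to 2.04, with a median of -0.02. In all 6 CTL number pairs, 26 of the 95 genes (27.4%) were higher in the left and 22 (23.2%) higher in the right, against 30.4% and 16.6% of all genes with a mean of at least 50. In DAAO, 8 of the 95 (8.42%) were higher in the left and 10 (10.5%) higher in the right in all 6 pairs, against 23.8% and 12.7%. The other 77 genes had no common direction over the 6 DAAO pairs, compared with 47 over the 6 CTL pairs. Over all such genes, too, both shares with a common direction were lower in DAAO than in CTL. The median SD of the 95 genes was 0.63 in right DAAO and 0.31 in right CTL. The part of this spread in the missing common direction was not tested. Pairs were formed by number, and the pairing of C_7118, C_7120 and C_7123 is uncertain.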

How the data were processed

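The deposited tables, 1 per ventricle, hold normalized counts: a signal made from read counts per gene and a size factor for each library. STAR 2.7.0a, FastQC, DESeq2 1.26.0 and the build Rnor_6.0 are named in the submitters' processing notes. Which counter, annotation and strand setting were used is not given in the sources used here, so genes that overlap or have near copies are uncertain. All values above 0 were whole multiples of 1 step per library (100% within 1e-06), which gave the recovered reads.

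The 95 genes, the lists and the tests were chosen with earlier results of these data known. Named were the 2 members with the most negative mean difference; the most abundant gene, the genes called with the block and the genes at the limits are given without identifiers. Genes with a mean of at least 10 were tested two-sided on log2(value + 1), using limma 3.58.1 (R 4.3.3, trend option) and Benjamini-Hochberg adjustment. The added 1 makes differences of low genes smaller, yet this scale did not give smaller differences than edgeR throughout. For genes of the 95 with a CTL mean below 1000, the right ventricular median was -1.69 on this scale and -1.54 by edgeR. The left ventricular medians were -1.855 and -1.860. Recovered reads were tested with edgeR 4.0.16 and DESeq2 1.42.0. Other alternatives were the pseudocount, filters, equal library totals, the animal number as a block and leaving out animals.

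Same-numbered left and right libraries deviated together across genes with r from 0.057 to 0.788, above 0.1 for 10 of 12 numbers. For 9 of 12 the own partner correlated best, and the 3 others were CTL numbers. The numbers are read as animals, so blocked counts stand beside unblocked ones. The reference tables, from the assembly GRCr8, list no Ensembl identifiers.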

Additional observations from a re-analysis of the deposited data

Results flagged for a closer look

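One of 28 groups of 6 libraries examined held a library far from the others, and chance gives about 1 in 20. The second most abundant of the 95 genes had 23605 normalized counts in the left ventricular CTL library C_7005, while the other 5 CTL libraries lay between 39850 and 41995. The gap to the nearest of them was 0.883 of the whole range of the group. All 6 DAAO libraries of this gene were lower still, with a mean of 14123 ± 3084 (SD, n = 6).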

How the results depend on the processing

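The median differences of the 95 genes kept their direction under every alternative tried. The groups of these genes do not overlap, so leaving out animals or changing the pseudocount could not reverse it, and nothing is read from this. The largest move in the right ventricle came with equal totals, to -1.23, against an SD of the library medians of 0.199 in CTL and 0.549 in DAAO. Leaving out 1 animal at a time gave -1.61 to -1.45 in the left and -1.57 to -1.31 in the right ventricle. The differences of both named identifiers also kept their direction, from which nothing is read either, since the same rule chose them. The alternatives for them were chosen after seeing the data. So were the SDs and both kinds of correlation without C_7000 and C_7005, and the SDs and the correlations between genes without D_7138. Total counts of called genes within a ventricle stayed within 1.5 times those reported, but with equal totals the counts by direction did not: 1628 lower and 4337 higher in the left and 932 and 3815 in the right ventricle.

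The rule chose 95 identifiers as written, 53 with equal totals, 192 without C_7000 and C_7005, 36 at a difference of -1.5 or less, 167 at -0.8 or less and 162 with overlap allowed. Leaving out 1 animal gave 83 to 143, the highest without C_7005.

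Genes of the 95 whose effect differed between the ventricles numbered 0 as reported. They numbered 3 with the replicate block, 1 at a mean of at least 100, 1 without C_7000 and C_7005 and 0 to 1 without 1 animal, with 1 left without C_7005 or D_7142. Over all genes the count was 391 as reported, 1360 with the replicate block, 236 without C_7000 and C_7005, and 85 (without D_7146) to 616 (without D_7137) without 1 animal. The block left out no library or gene and used a correlation of 0.330 between libraries of the same number. In the other settings named here, fewer libraries or genes entered a fit. The cause of these changes was not tested beyond that. A block could not be fitted within 1 ventricle, where each number occurs once. Differences at DAAO levels of a few reads are limited by depth.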
